A study of Mus musculus with 10 samples.

Results

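The 7 genes described here encode the central parts of MHC class II antigen presentation: the chain genes *H2-Aa*, *H2-Ab1* and *H2-Eb1*, the invariant chain gene *Cd74*, the peptide exchange genes *H2-DMa* and *H2-DMb1*, and the transactivator gene *Ciita*. The rule names them and uses no measured value, though they were picked with earlier results of these data known. They make up 7 of the 18292 gene symbols in the count tables. Of the 7, 6 had enough counts to be among the 12157 genes tested, and *Ciita* did not. The question was how much of each transcript the sorted microglia held, and how many cells held it, in the adult brain and in both kinds of culture.

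All mice were C57BL/6. The 5 groups held 2 libraries each. The adult group was microglia isolated directly from the brains of mice aged 10 to 15 weeks. The in vitro group came from mixed glial cultures of cortices of pups at postnatal day 2, with the meninges removed, collected at day 22 (3 weeks in the labels). The slice 1 day, slice 1 week and slice 3 weeks groups came from brain slices of pups at postnatal days 1 to 4, kept in culture for those times, with several slices pooled where needed. The labels name no inflammatory stimulus for any group. The growth factor hPDGF was added to the slice medium at each change, which the methods do not state for the in vitro cultures, so medium and culture type cannot be told apart. All cells were sorted as live, CD11b high and CD45 intermediate, and read with a droplet-based kit that tags the 3′ end of each transcript and counts molecules by unique molecular identifiers (UMIs). The adult cells also came from older animals than every culture, so age and culture cannot be told apart.

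MHC class II molecules display peptides from the endosomal pathway to CD4+ T cells. An alpha and a beta chain pair in the endoplasmic reticulum with the invariant chain, whose remnant is then exchanged for an antigenic peptide with the help of H2-DM. H2-Aa and H2-Ab1 are the 2 chains of one such pair, and H2-Eb1 is the beta chain of another, whose alpha chain C57BL/6 mice do not make. Transcription of the pathway depends on CIITA, which is recruited by proteins bound to the X and Y boxes of class II promoters and is induced by interferon gamma. Resting microglia are known for low class II expression, while dendritic cells, B cells and some macrophages at the borders of the brain are known for high expression.

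Except for *Cd74* and *Ciita*, the members lie in the class II region of chromosome 17 (GRCm38, GENCODE vM21): *H2-DMa* at 34119541 to 34139101, *H2-DMb1* at 34153072 to 34160230, *H2-Ab1* at 34257689 to 34269419 and *H2-Eb1* at 34305867 to 34316674, all on the plus strand, and *H2-Aa* at 34282744 to 34287823 on the minus strand. *Ciita* spans 10480059 to 10528418 on the plus strand of chromosome 16. On the other strand, the annotation has *Brd2*, *CR974462.4* and *Gm20493* overlapping *H2-DMa*, *Gm20513* overlapping *H2-Eb1* and *Dexi* overlapping *Ciita*. On the same strand, *CR974462.3* overlaps *H2-DMa* and *Mir5107* overlaps *Cd74*. Of the 50-base words in the last 500 bases of the *H2-DMb1* transcripts, 27.4% also occur in its neighbor *H2-DMb2*, so reads of this pair are not always told apart, while the other 6 members share none with any other gene.

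RefSeq promoter entries (GRCm38.p6, 250 bases before to 50 after each start) were at hand for 4 of the 7 members: *H2-Aa*, *H2-Eb1*, *H2-DMb1* and *H2-DMa*. They were searched on both strands for the core of the X box, AACNNNTG, followed after 10 to 30 bases by the Y box, ATTGG. This pair is in 0.807% of all 32851 promoter entries, against 35.6% for the X core alone and 37.4% for the Y box alone. It was found in *H2-Eb1*, where AACTGATG starts 89 bases and ATTGG 59 bases before the transcription start, and in *H2-DMb1*, at 92 and 61 bases. *H2-Aa* gave no match to the pair, with a Y box string 48 bases before its start, and neither of the *H2-DMa* entries matched the pair. An X box that departs from the AACNNNTG string would be missed, so the lack of a match does not show that the box is lacking. The same pair is in 3 of 4 class II genes outside the members, *H2-DMb2*, *H2-Ob* and *H2-Eb2*. The 130 bases before the starts of *H2-Aa* (chr17:34287824-34287953, minus strand, read in the direction of the gene) and *H2-Eb1* (chr17:34305737-34305866, plus strand) are shown because these chain genes have the most uneven values below, with the motif matches in capitals.
H2-Aa: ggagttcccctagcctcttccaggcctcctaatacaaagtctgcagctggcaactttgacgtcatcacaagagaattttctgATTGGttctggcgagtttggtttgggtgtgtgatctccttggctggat
H2-Eb1: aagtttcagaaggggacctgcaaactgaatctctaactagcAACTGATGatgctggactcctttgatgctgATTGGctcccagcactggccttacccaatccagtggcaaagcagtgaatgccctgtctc

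After removal of cells outside the study's stated limits, 19059 of 19637 barcodes remained. These were 3527 to 3799 in the adult libraries, 2417 to 2682 in vitro, 518 to 1014 at 1 day, 61 to 148 at 1 week and 1153 to 3740 at 3 weeks. The study's methods name a target of about 1000 sorted cells a sample. For both slice 1 week libraries the study states fewer cells than were kept here, and far fewer for replicate 1. Both adult libraries and slice 3 weeks replicate 2 also held more cells than the highest count it states. It had removed outliers on a t-SNE map, a step not repeated here, so the values of any group may include cells it left out. A library summed to 385373 to 39689540 UMIs, and its cells to a median of 1858 to 13966. No pair of libraries shared more than 21 barcodes. All 9 microglia markers were detected in every library, with a summed level of 22970 to 23887 counts per 1000000 UMIs (CPM) in adult and 2187 to 9982 CPM in the cultures. The 8 neutrophil markers together reached 7414 to 22042 CPM at 1 day and 42925 and 942 CPM in the 1-week libraries, the higher value in replicate 1, against at most 7.87 CPM elsewhere. The 8 markers of border-associated macrophages reached 4821 to 4923 CPM in vitro against 7.21 to 12.8 CPM in adult. In slices they stood at 315 to 373 CPM at 1 day, 317 to 524 CPM at 1 week and 133 to 173 CPM at 3 weeks. The submitters' labels place adult replicate 1 and slice 3 weeks replicate 1 in one study and the other 8 libraries in another. For some members and comparisons, values against the adult library of the same study are therefore given beside the pooled ones.

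*Cd74*, the invariant chain gene, was highest after 1 day in slices and lowest in vitro. Its level, in CPM scaled by TMM factors, was 116 and 103 in the adult libraries, 34.4 and 14.4 in vitro, 338 and 251 at 1 day, 50.4 and 40.9 after 1 week, and 72.7 and 54.3 at 3 weeks. Both 1-day libraries lay above all others, and both adult libraries lay above every remaining culture. Against adult (110 ± 9.12 CPM, SD, n = 2), *Cd74* rose at 1 day (log2 fold change 1.42, SE 0.334, adjusted p = 0.0046 by edgeR's quasi-likelihood test), when 24.9% of all tested genes were called higher and 25.3% lower. In vitro it fell by 2.17 on the log2 scale (SE 0.343, edgeR adjusted p = 0.000357), or by 2.81 without in vitro replicate 1 and 1.55 without in vitro replicate 2, where 22.4% of tested genes were called higher and 28.5% lower. A gene was called at an adjusted p under 0.05 and a fold change over 1.5. Markers of other cell types were also higher at 1 day. The 7 monocyte markers summed to 137 to 355 CPM against 4.51 to 6.52 CPM in adult, where 6 of 6 tested were called higher, and the 8 border macrophage markers to 315 to 373 CPM against 7.21 to 12.8 CPM, with 6 of 8 called higher. The *Cd74* difference at 1 day was 1.48 without neutrophil-rich cells (adjusted p = 0.00288). Without cells with at least 3 detected markers of one other cell type it was 1.81, with slice 1 day replicate 1 as the only library of that time, so its adjusted p of 0.0228 takes the spread from the other groups.

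At 1 week *Cd74* fell by 1.23 against adult (SE 0.403, edgeR adjusted p = 0.0415), beside 15% of tested genes called higher and 13.6% lower. That call was lost without adult replicate 1 (-1.10, adjusted p = 0.13), adult replicate 2 (-1.32, adjusted p = 0.0736), slice 1 week replicate 1 (-1.40, adjusted p = 0.227), slice 1 week replicate 2 (-1.16, adjusted p = 0.148) or slice 1 day replicate 2 (-1.18, adjusted p = 0.0578). It was also lost with the study label as a covariate (-1.08, adjusted p = 0.0928) and with cells thinned to 1000 UMIs (-1.33, adjusted p = 0.147, on 9 thinned UMIs at 1 week). Against the adult library of the same study, the 1-week libraries stood at log2 ratios of -1.04 and -1.34. At 3 weeks the difference of -0.80 (SE 0.332, edgeR adjusted p = 0.0803) did not pass, beside 17.9% of genes called higher and 17.5% lower. It passed without in vitro replicate 1 (-0.75, adjusted p = 0.0199) or in vitro replicate 2 (-0.75, adjusted p = 0.02), and under 7 of 22 alternatives in all. The others were library size alone (-0.995, adjusted p = 0.0364), no filter on low counts (-0.73, adjusted p = 0.000714), thinned cells (-0.86, adjusted p = 0.0294), only the 4 libraries compared (-0.73, adjusted p = 0.0274) and the replicate number as a block (-0.81, adjusted p = 0.0186). Against the adult library of the same study, both 3-week libraries were lower, by log2 ratios of -0.68 and -0.93, and both 1-day libraries higher, by 1.71 and 1.28. Within the slices, *Cd74* fell by 2.65 from 1 day to 1 week (SE 0.405, adjusted p = 0.00445), and fell by 2.22 from 1 day to 3 weeks (SE 0.343, adjusted p = 0.00135). The former call was lost without slice 1 week replicate 1 (-2.87, adjusted p = 0.0674). The labels do not say whether replicates came from separate animals, and the series' design text calls them biological replicates, so each p-value measures the spread between these libraries.

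**Figure D1:**
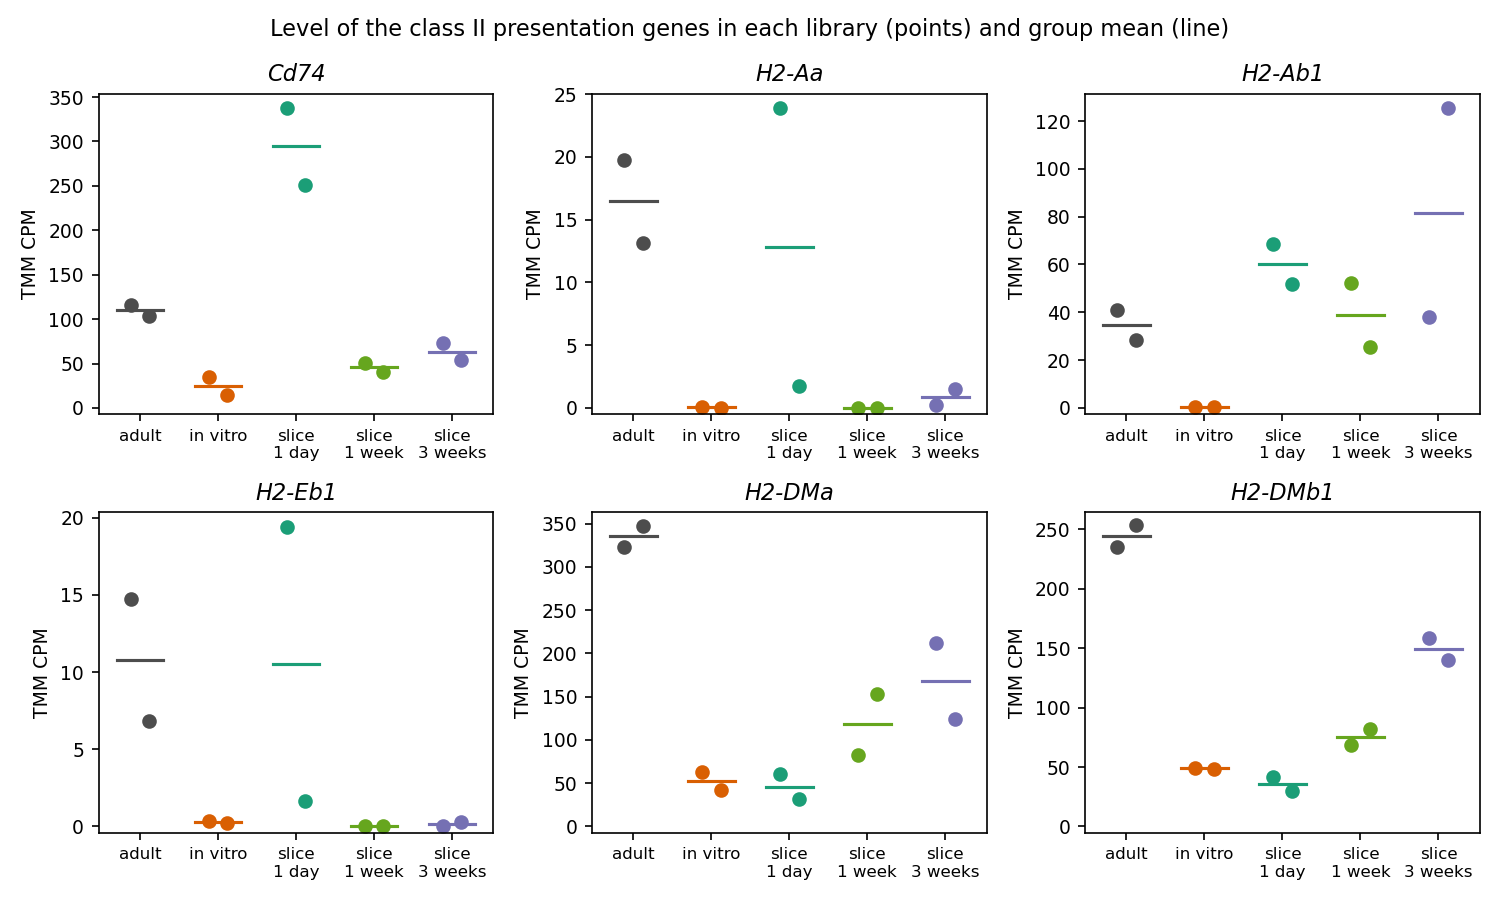
Level of 6 of the genes in each library (points, in CPM scaled by TMM factors on a linear axis) with the mean of each group (line), in the order adult, in vitro, slice 1 day, 1 week and 3 weeks. *Cd74* peaks at 1 day with 338 and 251 CPM, *H2-DMa* and *H2-DMb1* are highest in adult, and the 3-week libraries stand apart for *H2-Ab1* at 38.2 and 125 CPM.

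*H2-Ab1*, the beta chain gene of the H2-A molecule, was nearly absent in vitro and present in every other library. Its level was 41.2 and 28.5 CPM in adult, 0.225 and 0.281 in vitro (7 and 10 UMIs in all), 68.7 and 51.8 at 1 day, 52.4 and 25.6 after 1 week, and 38.2 and 125 at 3 weeks. The in vitro libraries lay below all others, the 1-day libraries lay above the adult ones, and the 1-week and 3-week libraries overlapped adult or fell on both sides of it. Against adult, *H2-Ab1* fell by 7.05 in vitro on the log2 scale (SE 0.658, edgeR adjusted p = 9.77e-06). All 6 tested members fell in vitro, where 28.5% of all tested genes were called lower, and none rose, beside 22.4% called higher. At 1 day its difference from adult of 0.77 (SE 0.443, adjusted p = 0.162) did not pass, and at 1 week it was 0.29 (SE 0.567, adjusted p = 0.745). The 1-day difference passed without slice 3 weeks replicate 1 (0.80, adjusted p = 0.00888) or slice 3 weeks replicate 2 (0.81, adjusted p = 0.00931), which enter through the shared spread. It also passed with no filter on low counts (0.80, adjusted p = 0.000108) and with only the 4 libraries compared (0.82, adjusted p = 0.0113).

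At 3 weeks *H2-Ab1* rose against adult by 1.24 (SE 0.436, edgeR adjusted p = 0.0437), the only member called higher in that comparison, and the call rested on slice 3 weeks replicate 2. Without that library the difference was 0.18 (adjusted p = 0.656), and without slice 3 weeks replicate 1 it was 1.87 (adjusted p = 0.000215). Against the adult library of its own study, slice 3 weeks replicate 2 was higher by a log2 ratio of 2.14, and slice 3 weeks replicate 1 lower, at -0.11. The call was also lost without adult replicate 1 (1.59, adjusted p = 0.0755), adult replicate 2 (1.00, adjusted p = 0.21), slice 1 day replicate 1 (1.24, adjusted p = 0.0553), slice 1 week replicate 1 (1.28, adjusted p = 0.0505) or slice 1 week replicate 2 (1.28, adjusted p = 0.0507). With the replicate number as a block it was 1.19 (adjusted p = 0.0663), with library size alone 1.03 (adjusted p = 0.0695), with the study label as a covariate 1.02 (adjusted p = 0.0799), and with only the 4 libraries compared 1.29 (adjusted p = 0.0751). Within slices, *H2-Ab1* at 3 weeks differed from 1 day by 0.47 (SE 0.433, adjusted p = 0.441) and from 1 week by 0.95 (SE 0.549, adjusted p = 0.363), and neither passed. Without slice 3 weeks replicate 1 both did (1.07 and 1.58, adjusted p = 0.00716 and 0.0136), and without slice 3 weeks replicate 2 both were below 0 (-0.63 and -0.12). The 1-week difference from adult turned to -0.42 without slice 1 week replicate 1.

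*H2-Aa* and *H2-Eb1*, the alpha chain gene that partners *H2-Ab1* and the beta chain gene of H2-E, gave few UMIs outside the adult and 1-day libraries. *H2-Aa* stood at 19.8 and 13.1 CPM in adult, 0.0963 and 0 in vitro, 23.9 and 1.75 at 1 day, 0 in both 1-week libraries, and 0.259 and 1.49 at 3 weeks. *H2-Eb1* stood at 14.7 and 6.83 CPM in adult, 0.385 and 0.196 in vitro, 19.4 and 1.65 at 1 day, 0 in both 1-week libraries, and 0 and 0.279 at 3 weeks. Adult libraries lay above those of all other groups except slice 1 day, whose replicates fell on both sides of adult for both genes. A level of 0 allows up to 2.96 and 7.68 CPM in the 1-week libraries, the value of 3 UMIs there, so that *H2-Eb1* at the lower adult level was not detectable in the smaller of them.

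For *H2-Aa*, 372 UMIs in adult stood against 3 in vitro, a ratio of 387 in level (95% counting interval 131 to 1883, edgeR adjusted p = 0.000694). Of the adult UMIs, 306 lay in 8 cells described below, so UMIs are not independent, and without those cells the ratio was 68.6 (66 UMIs against 3, counting interval 22.5 to 341). *H2-Eb1* fell by 5.21 in vitro on the log2 scale (SE 1.03, adjusted p = 0.00197), and without adult replicate 1 it fell by 4.43 (adjusted p = 0.0171). Both genes thus moved with *H2-Ab1* in vitro. At 1 day their differences from adult, -0.53 for *H2-Aa* (SE 0.872, adjusted p = 0.627) and -0.21 for *H2-Eb1* (SE 0.849, adjusted p = 0.852), did not pass. They were -3.23 and -2.72 without slice 1 day replicate 1 (adjusted p = 0.00832 and 0.0163) and 0.59 and 0.89 without slice 1 day replicate 2 (adjusted p = 0.444 and 0.239). *H2-Eb1* at 1 day was also above adult without adult replicate 1 (0.55, adjusted p = 0.722). At 3 weeks they went the other way from it: *H2-Aa* fell by 3.94 (SE 1.02, adjusted p = 0.013) and *H2-Eb1* fell by 5.72 (SE 1.24, adjusted p = 0.00547), with 4 of the 6 members lower in all, beside 17.5% of all tested genes. The 3-week libraries held 6 *H2-Eb1* UMIs, all in replicate 2 and 4 of them in 1 cell. Without adult replicate 1 *H2-Eb1* fell by 4.99 (adjusted p = 0.0328), and without slice 3 weeks replicate 2, which leaves 0 UMIs at 3 weeks, the adjusted p was 0.0409 and the fold has no value. Without that library *H2-Aa*, with 2 UMIs left at 3 weeks, had an adjusted p of 0.0423. Leaving out adult replicate 1 ended the call for *H2-Aa* (-3.58, adjusted p = 0.0634), and both 3-week libraries were below the adult library of the same study, by log2 ratios of -5.67 and -3.14 for *H2-Aa*. At 1 week, the adult level was at least 8.12-fold higher for *H2-Aa* and at least 5.55-fold higher for *H2-Eb1*, against 3 UMIs over the group (adjusted p = 0.129 and 0.149). Without the 8 adult cells these bounds were 1.44-fold and 1.18-fold, at 3.08 and 2.52 CPM in adult. Both differences passed without slice 1 day replicate 1 (adjusted p = 0.0181 and 0.0248) or slice 1 day replicate 2 (adjusted p = 0.0187 and 0.0263), and also by DESeq2 (adjusted p = 0.0396 and 0.0151), with no filter on low counts and with only the 4 libraries compared (adjusted p = 0.00198 and 0.0156). Against 1 day, *H2-Aa* fell by 3.41 at 3 weeks (SE 1.07, adjusted p = 0.0382) and *H2-Eb1* fell by 5.50 (SE 1.28, adjusted p = 0.0117). Both calls rested on slice 1 day replicate 1, and without it the values were -0.73 (adjusted p = 0.569) and -3.01 (adjusted p = 0.0612), against -4.46 and -6.54 without slice 1 day replicate 2. The *H2-Aa* call was also lost under 7 alternatives other than leaving out a library, with adjusted p from 0.0512 to 0.213, and without adult replicate 1 (-3.46, adjusted p = 0.0526), adult replicate 2 (-3.44, adjusted p = 0.0509), slice 3 weeks replicate 1 (-2.83, adjusted p = 0.0935) or slice 3 weeks replicate 2 (adjusted p = 0.101, with 2 UMIs left at 3 weeks), and the *H2-Eb1* call without slice 3 weeks replicate 2 (adjusted p = 0.0755, with 0 UMIs left at 3 weeks).

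Single cells show how the chain transcripts were spread. Most *H2-Aa* and *H2-Eb1* UMIs sat in 10 of the 19059 cells, 0.0525%, each with at least 10 UMIs of the pair together, a limit set after the values were seen. These class II-high cells, 6 and 2 in the adult libraries, 1 in slice 1 day replicate 1 and 1 in slice 3 weeks replicate 2, held 407 of 517 *H2-Aa* UMIs (78.7%) and 272 of 369 *H2-Eb1* UMIs (73.7%). They held 12.8% of *Cd74* UMIs, 9.13% of *H2-Ab1* UMIs, 0.257% of *H2-DMa* UMIs and 0.144% of *H2-DMb1* UMIs. Within adult alone the shares were 82.3% of *H2-Aa*, 78.7% of *H2-Eb1*, 49.0% of *H2-Ab1* and 40.4% of *Cd74* UMIs. The adult levels of the chain genes and of *Cd74* therefore came in large part from 8 cells, whereas those of the peptide exchange genes did not.

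The 8 adult class II-high cells carried 17 to 129 UMIs of *H2-Aa* and *H2-Eb1* together, 8 to 87 of *H2-Ab1* and 30 to 214 of *Cd74*. Each also held UMIs of 4 to 7 of the 9 microglia markers. Microglia markers took a median of 0.750% and 0.359% of their UMIs in the adult libraries, against 2.66% and 2.61% in the other cells. *Ccr2*, a chemokine receptor of monocytes, was detected in 5 of the 8, while none of the other 6 monocyte markers was detected in any of them, and the border macrophage genes *Mrc1*, *Pf4* and *Ms4a7* in 5, 5 and 4. In the 1-day cell, with 8268 UMIs, 81 were of *H2-Aa*, 68 of *H2-Eb1*, 28 of *H2-Ab1* and 214 of *Cd74*. That cell also held 36 UMIs of *Ccr7*, a chemokine receptor of migrating dendritic cells, 2 of *Flt3*, 1 of *Zbtb46* and no microglia marker UMI. Further, it held 2 UMIs of the B cell marker *Cd79b*, 2 of *Pf4* and 7 of neutrophil markers. The 3-week cell, with 4363 UMIs, held 20 of *H2-Aa*, 4 of *H2-Eb1*, 9 of *H2-Ab1*, 31 of *Cd74*, 7 of microglia markers and 3 of *Cd79b*. What these cells are was not tested.

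Leaving the 10 cells out, an alternative added after the data were seen, changed calls of *Cd74*, *H2-Ab1* and *H2-Aa*. Of these cells 8 were adult, and they held 49.0% of adult *H2-Ab1* UMIs and 40.4% of adult *Cd74* UMIs. Leaving them out lowers adult by construction, so the values against adult below are a description. *H2-Ab1* then rose against adult at 1 day (1.65, SE 0.450, edgeR adjusted p = 0.0102), and its difference at 3 weeks, called before, was larger (2.20, adjusted p = 0.0031). *Cd74* at 1 week against adult moved from -1.23 to -0.50 and lost its call (adjusted p = 0.371), and at 3 weeks it moved from -0.80 to -0.086 (adjusted p = 0.862). In vitro it fell by 1.45 instead of 2.17 (adjusted p = 0.00325), and at 1 day it rose by 2.01 instead of 1.42 (adjusted p = 0.000514). *H2-Aa* at 3 weeks against 1 day lost its call (-2.18, adjusted p = 0.0512), and in vitro against 3 weeks it became called (adjusted p = 0.0307). The values of the chain genes against adult moved too, with their calls kept. In vitro *H2-Eb1* went from -5.21 to -3.04 and *H2-Ab1* from -7.05 to -6.09, and at 3 weeks *H2-Aa* went from -3.94 to -2.67 and *H2-Eb1* from -5.72 to -5.00. Against 1 day, *H2-Eb1* went from -5.00 to -2.46 in vitro and from -5.50 to -4.42 at 3 weeks.

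**Figure D2:**
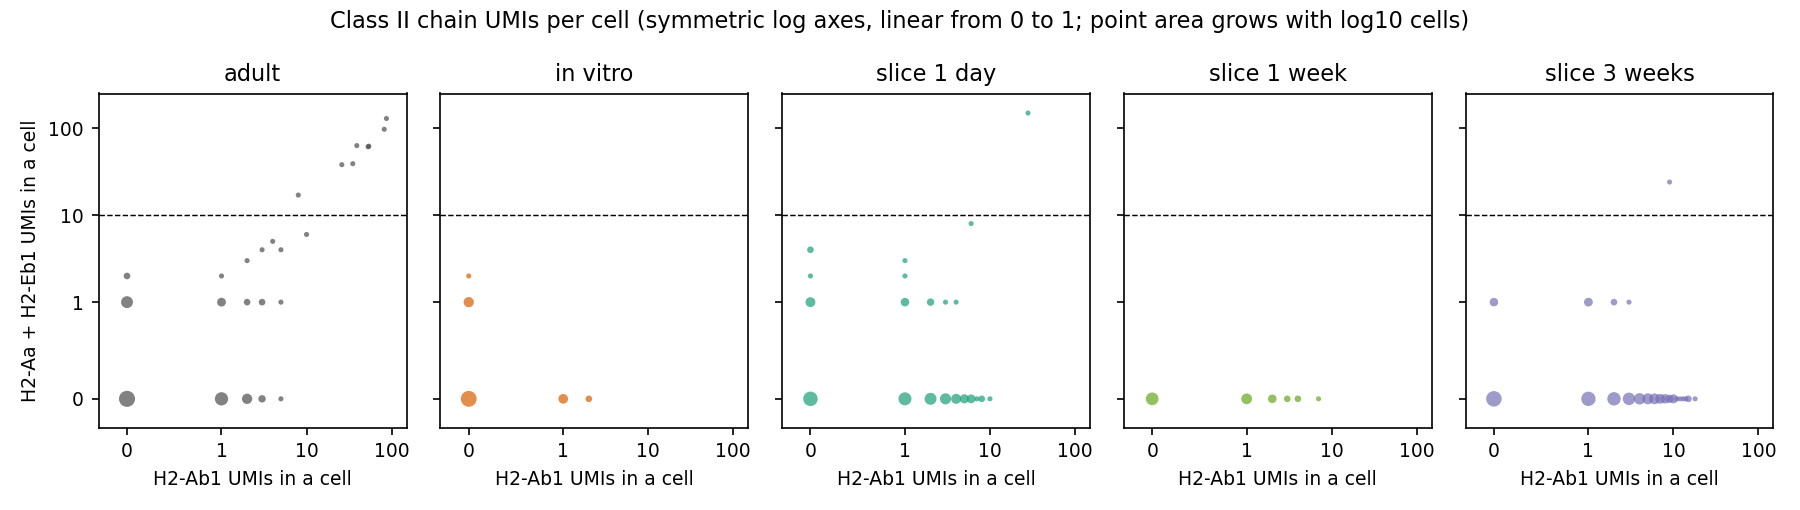
UMIs of *H2-Aa* and *H2-Eb1* together (vertical) against UMIs of *H2-Ab1* (horizontal) in each cell, by group, on symmetric log axes, with larger points for more cells and a dashed line at 10 UMIs. The 10 cells on or above the line are 8 adult cells, 1 at 1 day and 1 at 3 weeks, and the slice groups extend along the horizontal axis with few UMIs of the other chains.

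In slices, *H2-Ab1* was detected in a larger share of cells than in adult. In both, most of these cells held no UMI of another chain. After every cell was thinned to 1000 UMIs, so that shares can be compared across depths, an *H2-Ab1* UMI was found in 2.3% and 1.29% of adult cells, 0.0827% and 0% in vitro, 5.41% and 4.93% at 1 day, 4.73% and 3.39% after 1 week, and 3.47% and 10% at 3 weeks. Each slice library lay above both adult libraries, and both in vitro libraries below. Counting a UMI of any of the 3 chain genes gave 2.97% and 1.66% in adult, 0.165% and 0% in vitro, 5.79% and 5.13% at 1 day, 4.73% and 3.39% after 1 week, and 3.47% and 10.2% at 3 weeks, so that *H2-Ab1* made up most of the chain signal in slices. The counting interval of the larger 1-week share was 1.92% to 9.5% and that of the smaller 0.413% to 11.7%. The former takes in the any-chain share of adult replicate 1 but not that of adult replicate 2, and the latter takes in both. In the second in vitro library no UMI was found in 2682 thinned cells, where 3 cells would be 0.112%, a limit on cells with a UMI at this depth and not on cells that express the gene. With 2 libraries a group the smallest two-sided exact permutation p is 0.333, so no test of shares was made, and the intervals (95%, exact binomial) cover counting error only.

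Before thinning, *H2-Ab1* was found in 6.63% and 2.69% of adult cells, 0.248% and 0.336% in vitro, 24.9% and 27.5% at 1 day, 20.9% and 16.4% after 1 week, and 18.2% and 35.7% at 3 weeks. Most positive cells, 78.3% to 100% by library, held 1 or 2 UMIs. In slice 3 weeks replicate 2, 1335 cells held *H2-Ab1*, and 11 of them (0.82%) a UMI of *H2-Aa* or *H2-Eb1*. That share was 7.54% and 7.37% in adult, 4.65% and 3.23% at 1 day, and 0% in all other libraries. The UMIs of *H2-Ab1* for each UMI of *H2-Aa* were 2.08 and 2.17 in the adult libraries, 2.88 and 29.6 at 1 day, and 148 and 84.0 at 3 weeks. With all cells, slice 1 day replicate 1 thus lay near adult, and slice 1 day replicate 2 and both 3-week libraries far above it. Outside the class II-high cells, 285 and 114 *H2-Ab1* UMIs stood against 49 and 17 of *H2-Aa* in adult (5.82 and 6.71), 234 and 503 against 10 and 17 at 1 day (23.4 and 29.6), and 295 and 2680 against 2 and 12 at 3 weeks (148 and 223). The limit is itself set on *H2-Aa* and *H2-Eb1* UMIs, so leaving these cells out raises the ratio by construction, and the latter values are a description.

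Free RNA can place UMIs in cells that do not transcribe a gene. Cells with at least 10% of their UMIs in neutrophil markers, a cell type that should have little class II RNA, served as a measure of it, with a limit set after the data were seen, in 38, 92 and 21 cells of the 1-day libraries and of slice 1 week replicate 1. *H2-Ab1* was found in 0%, 8.70% and 4.76% of these, against 26.9%, 29.4% and 23.6% of the other cells, with median depths of 2437, 5955 and 4169 UMIs against 6650, 8729 and 7285. For *Cd74* the shares were 2.63%, 16.3% and 4.76% against 54.2%, 60.5% and 14.2%. The other cells thus lay above the neutrophil-rich cells for both genes, though they were also deeper. Slice 1 week replicate 2 held 1 such cell, and the adult, in vitro and 3-week libraries held 0.

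*Cd74* was found, after thinning, in 5.33% and 4.33% of adult cells, 3.27% and 1.3% in vitro, 18.0% and 17.7% at 1 day, 3.38% and 5.08% after 1 week, and 5.03% and 4.36% at 3 weeks. The 1-day libraries stood apart from the rest, and the 3-week shares overlapped the adult ones. Among thinned adult cells with *H2-Ab1*, 13 of 86 and 6 of 43 held *Cd74* (15.1% and 14%), against 5.10% and 4.21% of the other cells. A part of this came from the class II-high cells, and without them it was 7 of 80 and 4 of 41 (8.75% and 9.76%). At 3 weeks 4 of 40 and 31 of 375 held *Cd74* (10.0% and 8.27%), against 4.85% and 3.92%. These rest on few cells and were not tested. At 1 day the libraries did not go together, with 17.9% against 18.0% in one and 36.0% against 16.7% in the other.

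**Figure D3:**
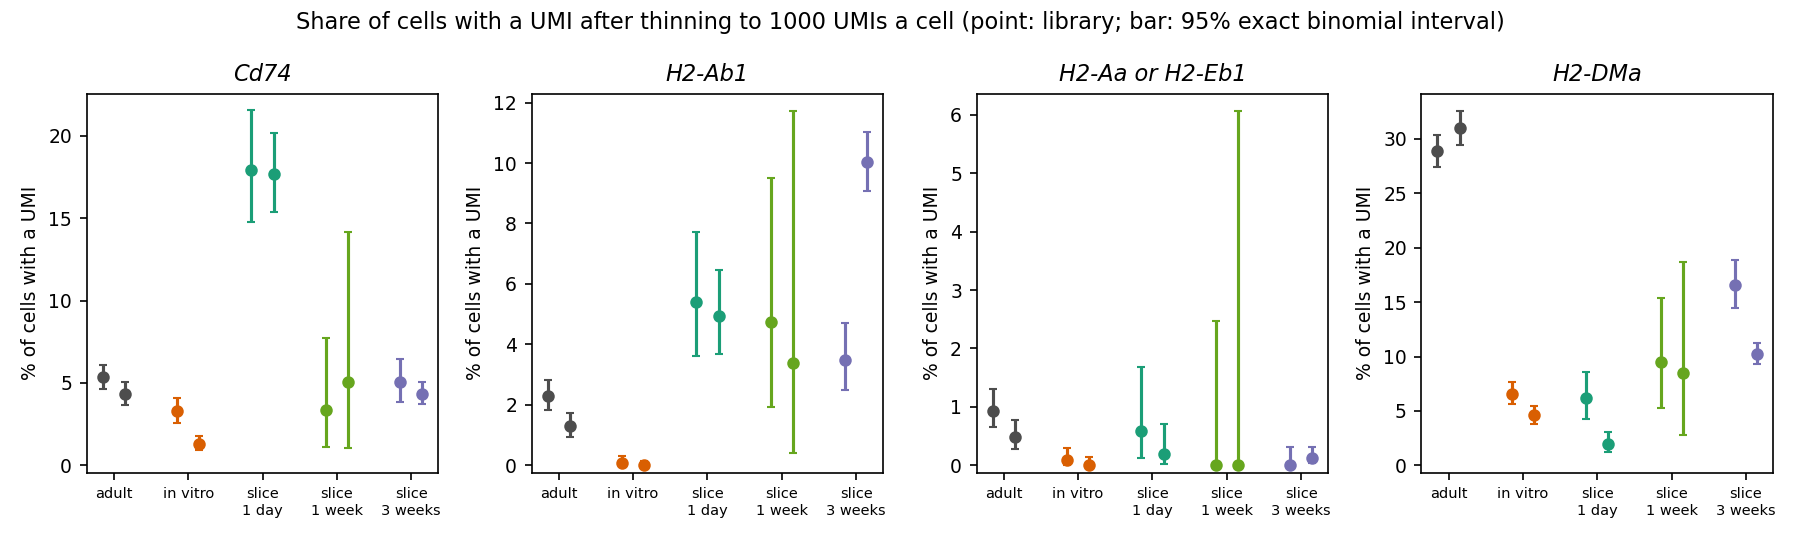
Percent of cells with a UMI after thinning to 1000 UMIs a cell, by library (points) with the 95% exact binomial interval (bars). The panels are *Cd74*, *H2-Ab1*, either of *H2-Aa* and *H2-Eb1*, and *H2-DMa*. *Cd74* is at 18.0% and 17.7% at 1 day and at most 5.33% elsewhere, *H2-Ab1* reaches 10% in one 3-week library, and *H2-DMa* is in 28.9% and 31.0% of adult cells.

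Summed over *Cd74* and the 3 chain genes, UMIs were concentrated in fewer cells in adult than in slices at 1 day and 3 weeks. The 1% of thinned cells with the most such UMIs held 68% and 71.0% of them in adult, 37.0% and 16.1% at 1 day, and 22.6% and 21.1% at 3 weeks, where 7.90% and 5.66%, 22.8% and 20.9%, and 8.15% and 13.7% of cells had any. The 5% with the most held 87.3% and 96.4% in adult, 55.8% and 44.6% at 1 day, and 66% and 51.9% at 3 weeks, a value that is high wherever few cells are positive. For *H2-DMa* it was 31.0% and 28.9% in adult. In vitro the 5% exceeded all positive cells, and the 1-week libraries held 13 and 5 such UMIs, too few to describe their spread.

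*H2-DMa* and *H2-DMb1*, which encode the 2 chains of the peptide exchange factor H2-DM, were lower in every culture than in adult. *H2-DMa* stood at 323 and 348 CPM in adult, 63.4 and 42.3 in vitro, 60.3 and 31.8 at 1 day, 83.0 and 154 after 1 week, and 212 and 124 at 3 weeks. *H2-DMb1* stood at 235 and 253 CPM in adult, 49.5 and 48.5 in vitro, 41.9 and 29.6 at 1 day, 68.2 and 81.9 after 1 week, and 159 and 140 at 3 weeks. For both genes the adult libraries lay above all 8 cultures without overlap. The in vitro and 1-day libraries of *H2-DMa* overlapped, as did its 1-week and 3-week libraries.

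Against adult, *H2-DMa* fell by 2.66 in vitro on the log2 scale (SE 0.371, edgeR adjusted p = 0.000153), and *H2-DMb1* fell by 2.32 (SE 0.177, adjusted p = 2.52e-06). At 1 day, *H2-DMa* fell by 2.89 (SE 0.382, adjusted p = 0.000138) and *H2-DMb1* fell by 2.79 (SE 0.185, adjusted p = 2.15e-06), the opposite direction to *Cd74* in the same cells. At 1 week, *H2-DMa* fell by 1.57 (SE 0.393, adjusted p = 0.0129), a call lost without slice 1 week replicate 1 (-1.10, adjusted p = 0.207), and *H2-DMb1* fell by 1.73 (SE 0.198, adjusted p = 0.000163). At 3 weeks *H2-DMb1* fell by 0.71 (SE 0.170, adjusted p = 0.00754), and the call was lost without slice 3 weeks replicate 2 (-0.57, adjusted p = 0.0655). *H2-DMa* fell by 1.00 at 3 weeks (SE 0.353, adjusted p = 0.0446), a call lost when slice 3 weeks replicate 2 was left out (-0.60, adjusted p = 0.288). It was also lost without either adult library (-0.99 and -0.95, adjusted p = 0.123 and 0.134), either in vitro library (both -0.95, adjusted p = 0.0626 and 0.0628) or either 1-week library (both -0.95, adjusted p = 0.0543 and 0.0539), and with RLE size factors (-0.96, adjusted p = 0.0523) or all deposited barcodes (-0.95, adjusted p = 0.0683). Both 3-week libraries were below the adult library of the same study, by log2 ratios of -0.61 and -1.48 for *H2-DMa* and -0.57 and -0.85 for *H2-DMb1*.

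Between 1 day and 3 weeks in slices, *H2-DMa* rose by 1.89 (SE 0.370, edgeR adjusted p = 0.00432) and *H2-DMb1* by 2.08 (SE 0.181, adjusted p = 8.16e-05), while *Cd74*, *H2-Aa* and *H2-Eb1* fell and *H2-Ab1* did not pass. In that comparison 13.9% of tested genes were called higher and 12.8% lower. *H2-DMb1* also rose from 1 day to 1 week by 1.06 (SE 0.205, adjusted p = 0.0114) and from 1 week to 3 weeks by 1.02 (SE 0.197, adjusted p = 0.0169), where 4.91% and 2.23% of genes were called higher and 5.25% and 3.49% lower. The first of these calls was lost without slice 1 day replicate 2 (0.81, adjusted p = 0.0892), slice 1 week replicate 1 (1.19, adjusted p = 0.0759) or slice 1 week replicate 2 (0.87, adjusted p = 0.0716), and the second without slice 1 week replicate 1 (0.89, adjusted p = 0.244) or with only the 4 libraries compared (0.97, adjusted p = 0.057). *H2-DMa* from 1 day to 1 week differed by 1.32 (SE 0.405, adjusted p = 0.0646) and passed without slice 1 day replicate 1 (1.81, adjusted p = 0.044), by DESeq2 (1.34, adjusted p = 0.00995) and with no filter on low counts (1.24, adjusted p = 7.71e-07). With cells thinned to 1000 UMIs before summing, the *H2-DMb1* difference from 1 day to 1 week turned to -0.94 (adjusted p = 0.585), that from 1 week to 3 weeks became 2.92 (adjusted p = 0.00272), and that of 1 week against adult became -3.70 instead of -1.73 (adjusted p = 2.62e-05). These values rest on 3 and 1 thinned *H2-DMb1* UMIs in the 1-week libraries, so the place of 1 week between 1 day and 3 weeks depends on the depth used.

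After thinning, *H2-DMa* was found in 28.9% and 31.0% of adult cells, 6.58% and 4.59% in vitro, 6.18% and 1.97% at 1 day, 9.46% and 8.47% after 1 week, and 16.6% and 10.2% at 3 weeks. *H2-DMb1* was found in 22.6% and 26.0% of adult cells, 4.10% and 4.55% in vitro, 4.63% and 2.66% at 1 day, 2.03% and 1.69% after 1 week, and 13.8% and 12.3% at 3 weeks. The adult shares lay above all others for both genes, and the 3-week shares above all other cultures. For *H2-DMb1* the 1-week shares, of 3 and 1 positive cells, were the lowest of all, although its 1-week level lay above those in vitro and at 1 day. Before thinning, the deeper in vitro cells gave 48.5% and 38.1% for *H2-DMa*, against 63.3% and 48.5% in adult.

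Between the culture types, 4 of the 6 tested members were called lower in vitro than at slice 3 weeks, 4 than at slice 1 day and 1 than at slice 1 week, and none was called higher. Against slice 3 weeks, the log2 difference in vitro was -8.29 for *H2-Ab1* (SE 0.664, edgeR adjusted p = 1.13e-05), -1.38 for *Cd74* (SE 0.336, adjusted p = 0.00915), -1.67 for *H2-DMa* (SE 0.359, adjusted p = 0.00475) and -1.61 for *H2-DMb1* (SE 0.173, adjusted p = 7.53e-05). These were 4 of 6 members, beside 19.9% of tested genes called lower and 13.3% higher, and *H2-Aa* (34 UMIs against 3, adjusted p = 0.0757) and *H2-Eb1* (0.51, adjusted p = 0.84) did not pass. The *H2-Aa* difference passed without slice 1 day replicate 1 (adjusted p = 0.00883) or slice 1 day replicate 2 (adjusted p = 0.00822). Without slice 3 weeks replicate 2 the *H2-Ab1* difference was -7.11. Without in vitro replicate 1 that of *Cd74* was -2.06. The calls for *Cd74* (-0.80, adjusted p = 0.0567) and *H2-DMa* (-1.33, adjusted p = 0.066) were lost without in vitro replicate 2, and that of *Cd74* also with only the 4 libraries compared (-1.33, adjusted p = 0.0574). Against slice 1 day, *Cd74* (-3.59), *H2-Ab1* (-7.82), *H2-Eb1* (-5.00) and *H2-Aa* were lower in vitro, with adjusted p = 6.55e-05, 2.41e-05, 0.00598 and 0.00282, beside 18.6% of genes called lower and 13.3% higher. Without slice 1 day replicate 1 the *H2-Eb1* call was lost (-2.49, adjusted p = 0.0554), and without slice 1 day replicate 2 it was -5.99. Without in vitro replicate 1 *Cd74* was -4.28. The differences of *H2-DMa* (0.22, adjusted p = 0.662) and *H2-DMb1* (0.47, adjusted p = 0.0591) did not pass, and that of *H2-DMb1* passed without slice 1 day replicate 1 (0.72, adjusted p = 0.0191). That of *H2-DMa* turned below 0 without in vitro replicate 1 (-0.027) or slice 1 day replicate 2 (-0.14). Against slice 1 week only *H2-Ab1* was called, with a log2 difference of -7.35 in vitro (SE 0.808, adjusted p = 0.000257), where 10% of genes were called lower and 6.2% higher. That call was lost without slice 1 week replicate 1 (-6.51, adjusted p = 0.0609), and *Cd74* (-0.94, adjusted p = 0.153) passed without in vitro replicate 1 (-1.56, adjusted p = 0.00986).

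Cells with at least 3 detected markers of one other cell type made up 88.0% and 88.4% of the in vitro libraries, where border-associated macrophage markers were high, 99.4% of slice 1 day replicate 2 and 100% of slice 1 week replicate 1. A rule that takes nearly whole sorted libraries does not single out cells of another type, so the values without such cells do not show what other cell types contribute. Without them, *Cd74* in vitro was -0.76 against slice 3 weeks (adjusted p = 0.249), and its call was lost, while those of *H2-DMa* (-1.79, adjusted p = 0.00341), *H2-DMb1* (-1.58, adjusted p = 0.000263) and *H2-Ab1* (1 UMI left in vitro, adjusted p = 0.000431) stood. Against adult, *Cd74* fell by 1.29 in vitro (adjusted p = 0.042), and *H2-Eb1*, with 3 UMIs left in vitro, had an adjusted p of 0.0051. The 1-day and 1-week groups were then 1 library each, assumed to vary like the other groups. On that footing the calls were lost for *H2-Eb1* in vitro against 1 day (3 UMIs against 4, adjusted p = 0.482), *H2-Ab1* in vitro against 1 week (1 UMI against 10, adjusted p = 0.09), *Cd74* and *H2-DMa* at 1 week against adult (-1.09 and -0.999, adjusted p = 0.449 and 0.173), and *Cd74* and *H2-DMb1* at 1 week against 1 day (-2.91 and 0.66, adjusted p = 0.256 and 0.417). From 1 day to 3 weeks they were lost for *H2-DMa* (1.37, adjusted p = 0.0696), *H2-Aa* (-1.86, adjusted p = 0.213) and *H2-Eb1* (-2.87, adjusted p = 0.223), and from 1 week to 3 weeks for *H2-DMb1* (0.93, adjusted p = 0.245). *H2-DMa* at 1 day against adult kept its call at -2.29, and in vitro against 1 day *H2-DMa* turned to -0.42 (adjusted p = 0.51).

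With thinned cells the calls of *H2-Ab1* and *H2-Eb1* in vitro stood, but each gene had 2 UMIs left there, so the folds have no firm value. The *H2-Eb1* calls at 3 weeks stood as well, on 3 thinned UMIs, with adjusted p = 0.00461 against adult and 0.0409 against 1 day. With the replicate number as a block, *H2-Eb1* at 3 weeks was -4.84 against 1 day (adjusted p = 0.00655) instead of -5.50.

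*Ciita*, the transactivator gene, was at the edge of detection. It gave 1 UMI in adult replicate 1, 2 in in vitro replicate 1, 3 in slice 1 day replicate 1, 1 in slice 3 weeks replicate 1 and 0 in the other 6 libraries, 7 of 137652792 UMIs in 5 cells. Of these 7, 4 lay in 2 of the class II-high cells, 3 of them in the 1-day cell. No group difference in *Ciita* was detectable at this depth.

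Other genes of the class II pathway gave the following counts against adult. Of the 4 remaining class II genes, *H2-Oa* and *H2-Ob*, whose products restrain H2-DM, *H2-DMb2*, a second beta chain gene of H2-DM, and *H2-Eb2*, 3 had enough counts to be tested. They were lower in 3 of 3 cases in vitro (*H2-Oa* -5.16, *H2-Ob* -3.73 and *H2-DMb2* -1.37 on the log2 scale) and in 2 of 3 at each slice time (at 3 weeks *H2-Oa* -2.49 and *H2-Ob* -0.78). None was higher, and the shares of all tested genes called lower were 28.5% in vitro, 25.3% at 1 day, 13.6% at 1 week and 17.5% at 3 weeks. *H2-Eb2* gave 1 UMI in all. The median over the list was -3.73 in vitro and -0.99 at 3 weeks, beside -0.11 and -0.03 over all tested genes.

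Of 11 tested transcription factor genes of class II promoters, none was higher than adult, beside 15% to 24.9% of all tested genes. *Irf8* alone was lower in vitro (-1.34), and 6 were lower at 1 day, 2 at 1 week and 3 at 3 weeks (*Irf1* -1.53, *Rfxank* -0.84 and *Spi1* -0.69). Beside the 28.5%, 25.3%, 13.6% and 17.5% of all tested genes called lower, 1 of 11 in vitro was below that share, 6 of 11 at 1 day above it, and 2 and 3 of 11 at 1 week and 3 weeks were near it. Of 9 tested genes of interferon gamma signalling, 3 were lower in vitro, namely the receptor gene *Ifngr1* (-2.29), the feedback inhibitor *Socs1* (-3.04) and the GTPase gene *Igtp* (-1.40). At 1 day 4 were lower, at 1 week 3, and at 3 weeks 5, among them *Ifngr1* (-1.48), *Socs1* (-2.11), *Gbp2* (-2.29), *Gbp3* (-3.10) and *Igtp* (-1.57). None was higher. The 3 of 9 in vitro were near the 28.5% of all tested genes, and 4, 3 and 5 of 9 at the slice times were above the shares of 25.3%, 13.6% and 17.5%.

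The 10 genes of antigen processing and invariant chain cleavage, proteases and others, moved both ways. At 3 weeks 6 of 10 were higher, the cathepsin genes *Ctsl* (2.01), *Ctsb* (1.86), *Ctsd* (1.32) and *Ctsz* (0.98), the thiol reductase gene *Ifi30* (1.52) and *Cd63* (1.78), a tetraspanin of late endosomes. *Ctss*, the main invariant chain protease of macrophage-like cells (-0.84), and *Cst3*, a cathepsin inhibitor (-2.51), were lower. In vitro *Ctsb* (1.92) and *Cd63* (1.76) were higher, and *Ctss* (-1.90), *Lgmn* (-1.68), *Sppl2a* (-0.76) and *Cst3* (-4.07) lower. At 1 day 4 were higher and 5 lower, and at 1 week 4 and 3. Beside these stood 22.4%, 24.9%, 15% and 17.9% of all tested genes called higher in vitro, at 1 day, at 1 week and at 3 weeks. The 2 of 10 higher and 4 of 10 lower in vitro and the 2 of 10 lower at 3 weeks lay nearest to those shares and to the 28.5% and 17.5% called lower.

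Among 8 tested genes of class II turnover and co-stimulation, 6 were lower in vitro, including *March1* (-2.13), which encodes the ligase that removes class II molecules from the surface, *Cd86* (-3.64), *Cd80* (-1.53), *Cd83* (-1.37) and *Icosl* (-2.91), as was *Lag3* (-10.58), an inhibitory receptor that binds class II. *March8* was higher (0.79). At 3 weeks 5 were lower, *March1* (-1.55), *Cd80* (-2.83), *Cd86* (-1.31), *Lag3* (-0.95) and *Icosl* (-1.11), and *Cd83* was higher (0.87). At 1 day 6 and at 1 week 5 were lower, and none was higher. The counts of lower genes lay above the 13.6% to 28.5% of all tested genes at every time, and the 1 of 8 higher in vitro and at 3 weeks below the 22.4% and 17.9%.

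Over the 10 libraries, the genes whose levels ran most like the mean of the 3 chain genes, on log2(CPM + 1), were *Dusp16* (Pearson r 0.950), *Tmem42* (0.930), *Ube2j1* (0.928), *Lrrc24* (0.926) and *Tha1* (0.919). The points share groups and depth, so these values describe the order of the libraries only.

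Within libraries, over the cells of the 8 libraries with at least 500 cells, the genes most like the summed chain genes were *Bnip3* (mean r 0.198), which encodes a mitophagy receptor, *Egln3* (0.188), a prolyl hydroxylase, *Bsg* (0.188), a chaperone of lactate transporters, and the glycolytic enzymes *Gapdh* (0.185) and *Gpi1* (0.175). For *Bnip3* the r was -0.01 and -0.00 in the adult libraries, 0.01 and 0.03 in vitro, 0.46 and 0.46 at 1 day, and 0.28 and 0.37 at 3 weeks, and 0.33 and 0.01 in the 148 and 61 cells of the 1-week libraries. In thinned cells outside the class II-high and neutrophil-rich ones it was 0.12 and 0.13 at 1 day and 0.12 and 0.15 at 3 weeks. Only 20 and 16 in vitro cells held a chain UMI, so the r there says little, and the ranking by mean r draws mainly on the slice libraries. *Bnip3* was picked as the gene most like the chain genes in these same cells, and cells of one library share depth and free RNA, so the values are a description with no test. The *Bnip3* level itself was 38.5 and 48.6 CPM in adult, 33.9 and 39.3 in vitro, 318 and 288 at 1 day, 364 and 151 after 1 week, and 175 and 370 at 3 weeks.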

How the data were processed

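The deposited files hold raw UMI counts per gene and cell, which the authors made with Cell Ranger (version 1.3.0 in the submitters' processing notes, genome build mm10); reads were assigned to genes there, and the settings beyond the defaults are not given in the sources used here. The 7 genes and all gene lists were chosen with earlier results of these data known. A gene missing from a table counted 0. The study's limits on cells were applied, so that no cell kept had more than 5% of its UMIs in mitochondrial genes, fewer than 400 detected genes or more than 30000 UMIs. No doublet caller was run here; the upper UMI limit is the only step against doublets, and the study removed outliers on a t-SNE map.

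The library was the replicate: the UMI counts of its cells were added up and tested with edgeR 4.0.16 in R 4.3.3, with TMM normalization, filterByExpr (minimum count 10), all 10 libraries in 1 quasi-likelihood fit with 5 groups, and Benjamini-Hochberg adjustment over all 12157 genes in each of 10 comparisons. Comparisons with the same group share its libraries. All adjusted p-values are from this test unless DESeq2 (1.42.0) is named. A gene was called at an adjusted p under 0.05 and a fold change over 1.5. Levels are CPM over the TMM-scaled library size. For shares, cells were thinned to 1000 UMIs and shallower cells left out, 66 and 205 in the adult libraries, 2 in slice 1 week replicate 2 and 0 elsewhere. All members were named, with every list by counts and, by value, list genes called in vitro or at 3 weeks against adult, and the 5 genes most like the chain genes over libraries and over cells. The fit was tested on simulated data. Alternatives were another normalization, no filter on low counts, DESeq2, all barcodes, the study label as a covariate, a replicate block, the 4 libraries compared, thinned cells, cells without other cell types' markers and each library left out. Leaving out class II-high or neutrophil-rich cells was added after seeing the data.

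The replicate numbers in the labels do not name a shared animal or day, and the deviations of same-numbered libraries correlated by -0.135 to 0.123, so the numbers were not taken as pairs. Of the other marker lists, those of dendritic cells summed to at most 64.4 CPM in any library, B cells to 67.7 CPM, T and NK cells to 8.89 CPM, astrocytes to 25.6 CPM and monocytes to 928 CPM, the last in slice 1 week replicate 1.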

Additional observations from a re-analysis of the deposited data

How the results depend on the processing

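Of 32 called fold changes of single members with counts above the floor, 16 kept direction and call under all 22 alternatives and 1 reversed under any. Scaling by library size alone moved the median of all genes by up to -0.30 on the log2 scale (in vitro against adult). The numbers of called members moved as follows. Without a filter on low counts they were 1 higher in vitro against 1 day, 3 lower in vitro against 1 week, 2 higher at 1 day and 5 lower at 1 week against adult, 2 higher and 3 lower at 1 week against 1 day, and 3 higher at 3 weeks against 1 week. By DESeq2 they were 2 lower in vitro against 1 week, 5 lower at 1 week against adult, and 2 higher and 2 lower at 1 week against 1 day. With only the 4 libraries compared they were 2 higher at 1 day, 5 lower at 1 week and 0 higher at 3 weeks against adult, and 0 higher at 3 weeks against 1 week. Without cells with 3 markers of another type, which left 0 and 6 cells in slice 1 week replicate 1 and slice 1 day replicate 2 (both then dropped), they were 0 lower in vitro against 1 week, 1 lower at 1 week against adult, 0 in either direction at 1 week against 1 day, 1 in each direction at 3 weeks against 1 day, and 0 higher at 3 weeks against 1 week. Thinned cells gave 0 higher at 1 week against 1 day. Without the class II-high cells, most of them adult, 2 were higher at 1 day against adult, where leaving them out lowers adult by construction.

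The single member higher at 3 weeks against adult, *H2-Ab1*, was lost (0 called) with library size alone, the study label as covariate or the replicate block. Besides that call, the replicate block changed the call of *Cd74* in that comparison (-0.81, adjusted p = 0.0186), of *H2-Aa* at 3 weeks against 1 day (-2.81, adjusted p = 0.0617) and of *H2-Aa* in vitro against 3 weeks (adjusted p = 0.0426), and no other.

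Leaving out each library gave 0 to 1 higher in vitro against 1 day, 0 to 2 lower in vitro against 1 week and 2 to 5 lower in vitro against 3 weeks. Against adult it gave 1 to 2 higher and 2 to 4 lower at 1 day, 1 to 5 lower at 1 week, and 0 to 1 higher and 2 to 4 lower at 3 weeks. Between slice times it gave 0 to 2 higher and 0 to 1 lower at 1 week against 1 day, 1 to 3 lower at 3 weeks against 1 day, and 0 to 2 higher at 3 weeks against 1 week.

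Of the called values only that of *H2-DMb1* at 1 week against 1 day reversed (-0.94 with thinned cells). Among uncalled ones, thinned cells gave 1.41 for *H2-DMb1* in vitro against 1 week and -0.44 for *H2-Eb1* in vitro against 3 weeks. Cells without other types' markers gave -0.42 for *H2-DMa* in vitro against 1 day and -0.086 for *H2-Ab1* at 1 week against adult. The study label as covariate gave -0.095 for *H2-Ab1* at 1 week and 0.25 for *H2-Eb1* at 1 day against adult. Leaving out a library gave -0.14 to 0.73 for *H2-DMa* in vitro against 1 day (-0.027 without in vitro replicate 1), -3.23 to 0.59 for *H2-Aa* and -2.72 to 0.89 for *H2-Eb1* at 1 day against adult (0.55 without adult replicate 1), -0.42 to 0.63 for *H2-Ab1* at 1 week against adult, and for *H2-Ab1* at 3 weeks -0.63 to 1.07 against 1 day and -0.12 to 1.71 against 1 week. The causes were not tested.

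The mean share of cells with a chain UMI was 4.14% in adult, 9.42% at 1 day, 6.24% at 1 week and 11.9% at 3 weeks when thinned to 1800 UMIs, and 5.76%, 27.4%, 18.7% and 27.1% with no thinning, with 0.712% in vitro. With all barcodes it was 6.04% at 1 day and 5.01% at 1 week, and without cells with other markers 6.47% at 1 day. The share of UMIs in the top 5% of cells was 83.0% in adult, 60.8% in vitro and 39.4% at 3 weeks with no thinning, 82.6% in adult without the class II-high cells, and 41.1% at 1 day without cells with other markers. The 1-week libraries are too small to show *H2-Aa* or *H2-Eb1* below 2.96 and 7.68 CPM.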
